A study of Mus musculus with 46 samples.

Results

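The 5065 pairs described here each joined a candidate cis-regulatory element (cCRE) to a promoter fragment, with the cCRE in the upstream and the promoter in the downstream position, and both fragments came from the Tfcp2l1 locus on mouse chromosome 1. They were chosen as the cCRE-promoter combinations of that locus whose activity was above 0 in all 3 biological replicates, which kept 5065 of 5599. They belong to 89293 single or paired fragments measured in the Upstream assay of the series. The pairs held 193 cCREs and 25 promoter fragments. Each fragment spanned 450 bp between its listed start and end, and could sit in the plasmid in the plus or the minus orientation.

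The series used massively parallel reporter assays in E14TG2a cells, an established line of mouse embryonic stem cells kept in medium with inhibitors of the Mek and Gsk3 kinases and leukaemia inhibitory factor (LIF). For the Tfcp2l1 fragments there was 1 group, cells with no genetic change or drug treatment named in the labels, transfected with the same plasmid pool in 3 separate experiments and harvested after 24 h. The plasmids were transiently transfected, so neither fragment was measured at its place in the genome. The deposited activity of a fragment or pair is the ratio of its barcodes in reporter cDNA to those in plasmid DNA, and the comparison asked how far each cCRE raised or lowered the activity of each promoter.

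Enhancers are stretches of DNA that bind transcription factors and raise transcription from promoters, which hold the start site and set the direction of transcription. In such an assay a fragment can act as an enhancer, as a promoter, or as both. Tfcp2l1 encodes a transcription factor that acts downstream of LIF and STAT3 and helps to keep embryonic stem cells in the naive pluripotent state. Its neighbours on the chromosome include broadly expressed genes (Nifk, a nucleolar protein, Clasp1, which binds growing microtubule ends, Ralb, a small GTPase, and Ptpn4, a tyrosine phosphatase) and genes expressed in few tissues (Gli2, a transcription factor of Hedgehog signalling, Inhbb, an inhibin and activin subunit, C1ql2, a secreted protein of synapses, and Marco, a scavenger receptor of macrophages).

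Of the 25 promoter fragments, 14 overlapped a promoter window of RefSeq (250 bases before to 50 bases after a gene's start, GRCm38.p6, the patch release of mm10). The windows of the fragments on which the results turn are given 5′ to 3′ on the strand of the gene, and capitals mark matches to the motifs named after them. The fragment at the Tfcp2l1 start, P011, holds the whole window at chr1:118627695-118627994 (plus strand), and the fragments at Inhbb (P017, chr1:119422199-119422498, minus strand) and C1ql2 (P031, chr1:120340332-120340631, plus strand) had the highest mean gains from a cCRE that passed the test. The windows of Nifk (P007, chr1:118321593-118321892, plus strand), Ralb (P018, chr1:119504733-119505032, minus strand) and Tmem185b (P019, chr1:119525904-119526203, plus strand) lie in 3 of the most active fragments alone.
Tfcp2l1 (P011): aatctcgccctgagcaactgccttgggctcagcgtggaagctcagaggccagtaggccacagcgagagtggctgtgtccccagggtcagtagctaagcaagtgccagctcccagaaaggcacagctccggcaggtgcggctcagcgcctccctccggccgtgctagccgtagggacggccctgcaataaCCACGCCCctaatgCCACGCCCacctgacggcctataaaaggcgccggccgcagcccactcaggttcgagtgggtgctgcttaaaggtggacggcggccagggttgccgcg
Inhbb (P017): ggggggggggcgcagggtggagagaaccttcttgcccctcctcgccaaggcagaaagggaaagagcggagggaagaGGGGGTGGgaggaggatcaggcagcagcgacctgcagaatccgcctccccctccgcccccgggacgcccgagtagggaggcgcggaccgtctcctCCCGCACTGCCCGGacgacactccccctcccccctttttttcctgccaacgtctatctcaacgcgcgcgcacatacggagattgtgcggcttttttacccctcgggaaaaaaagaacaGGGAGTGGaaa
C1ql2 (P031): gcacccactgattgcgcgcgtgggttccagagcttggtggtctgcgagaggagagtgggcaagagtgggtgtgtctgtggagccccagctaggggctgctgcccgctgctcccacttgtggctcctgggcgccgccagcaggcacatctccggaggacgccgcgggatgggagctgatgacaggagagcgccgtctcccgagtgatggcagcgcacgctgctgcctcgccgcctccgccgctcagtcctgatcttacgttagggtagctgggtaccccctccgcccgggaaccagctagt
Nifk (P007): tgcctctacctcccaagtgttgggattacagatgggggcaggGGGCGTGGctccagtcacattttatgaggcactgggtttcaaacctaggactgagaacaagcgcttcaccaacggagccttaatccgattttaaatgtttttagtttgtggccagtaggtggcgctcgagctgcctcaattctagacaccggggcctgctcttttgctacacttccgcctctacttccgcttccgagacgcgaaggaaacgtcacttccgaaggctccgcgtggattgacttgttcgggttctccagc
Ralb (P018): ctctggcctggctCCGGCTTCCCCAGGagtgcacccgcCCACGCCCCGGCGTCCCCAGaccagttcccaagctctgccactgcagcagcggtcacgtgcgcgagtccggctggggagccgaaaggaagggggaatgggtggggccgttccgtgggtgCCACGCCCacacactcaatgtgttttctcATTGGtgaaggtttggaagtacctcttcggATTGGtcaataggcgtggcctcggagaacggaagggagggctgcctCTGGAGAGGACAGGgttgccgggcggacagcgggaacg
Tmem185b (P019): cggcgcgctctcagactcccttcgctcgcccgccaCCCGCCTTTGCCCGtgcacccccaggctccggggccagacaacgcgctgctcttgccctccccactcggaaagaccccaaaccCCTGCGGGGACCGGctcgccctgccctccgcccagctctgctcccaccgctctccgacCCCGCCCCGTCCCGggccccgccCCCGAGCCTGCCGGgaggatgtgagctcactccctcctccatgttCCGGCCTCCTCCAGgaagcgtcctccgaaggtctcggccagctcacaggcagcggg
The motifs were searched on both strands. The KLF motif (GGGNGTGG) matched 2 times in the Tfcp2l1 window, 2 times in that of Inhbb, 2 times in that of Ralb and 1 time in that of Nifk, and 17.6% of all 32817 RefSeq windows held it. The pair of TFCP2L1 half-sites, CCNG repeated after a gap of 6 bases, matched 5 times in the Tmem185b window, 3 times in that of Ralb and 1 time in that of Inhbb, against 29.5% of all windows with a match. One KLF match and one half-site match in the Ralb window share bases. The NFY motif (CCAAT, held by 37.4% of windows) matched 2 times in the Ralb window. The C1ql2 window held no match to any of the 10 motifs searched. The others were the POU octamer (ATGCAAAT), SOX (AACAAAG), the ESRRB motif (TCAAGGTCA), STAT (TTCCNGGAA), the ETS motif (CCGGAAGT), NRF1 (GCGCATGCG) and the YY1 motif (AAGATGGCG), which 1.74%, 5.85%, 0.424%, 1.15%, 3.89%, 1.75% and 1.40% of all windows held, in that order. Among the windows shown, those of weak and of strong promoters did not separate by GC share. It was 65.3% for Tfcp2l1 (P011, measured alone only in minus orientation), 64.3% for Inhbb and 67.3% for C1ql2. For Nifk it was 53.7%, for Ralb 65.3% and for Tmem185b 73.3%. Of other weak fragments, the windows at Marco (P033) and 3830432H09Rik (P020) had less, with 47.3% and 46%, while that of Gli2 (P013) had 67.3%.

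Of the 193 cCREs, 6 overlapped a RefSeq promoter window. The one with the highest mean effect among them was E125 (chr1:119124820-119125270, mean log2 difference 2.24), which is shown for the part it shares with the window of the predicted gene Gm41934, chr1:119125021-119125270 on the minus strand.
E125: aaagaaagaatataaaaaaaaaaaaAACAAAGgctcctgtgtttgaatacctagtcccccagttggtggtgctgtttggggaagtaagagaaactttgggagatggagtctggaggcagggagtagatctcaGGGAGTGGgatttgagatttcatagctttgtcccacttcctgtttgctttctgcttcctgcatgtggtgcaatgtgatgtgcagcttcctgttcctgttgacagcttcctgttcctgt
It held 1 match to the SOX and 1 to the KLF motif, a GC share of 44.8% and no CpG dinucleotide. Sequences of the strongest cCREs were not in the tables used here.

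Alone, the promoter fragments covered a wide range of activity. The Nifk fragment P007 in plus orientation gave 14.8, 17.05 and 17.6 in replicates 1, 2 and 3. The Tmem185b fragment P019 gave 7.94, 8.71 and 9.42, the Ptpn4 fragment P022 gave 6.74, 7.28 and 7.93, and the Ralb fragment P018 gave 5.68, 6.57 and 7.43, all in plus orientation. The fragments at Tfcp2l1 were weak in the orientations measured alone, which left out P011 in plus orientation. P011, measured alone in minus orientation, gave 0.0591, 0.0579 and 0.0483. P012 starts near the end of the RefSeq window, shares 3 bases with it and holds the first part of the gene. It gave 0.104, 0.135 and 0.111 in plus and 0.152, 0.156 and 0.159 in minus orientation. A single empty fragment gave 0.161, 0.186 and 0.190, so the Tfcp2l1 fragments alone, in the orientations measured, were below it in every replicate. The fragments at Inhbb (P017 in plus orientation, 0.0138, 0.0376 and 0.0640) and C1ql2 (P031 in plus orientation, 0.0209, 0.0407 and 0.0634) were also below it, with replicate 1 the lowest of the 3 for both.

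Of 19 promoter fragments measured alone both ways, 7 were more than 2-fold more active in plus than in minus orientation, and 1, P014 (3688 bp from Gli2), was more than 2-fold more active in minus. The differences of the 7 were 4.62 on the log2 scale for the Nifk fragment, 3.86 for Tmem177, 3.73 for Ptpn4, 3.70 for P025 at Cfap221, 3.10 for Epb41l5, 2.65 for Ralb and 1.83 for P006, whose near edge lies 231 bp from Tsn. Nifk is on the plus strand in the RefSeq table and Ralb and Tmem177 are on the minus strand, so the more active orientation, plus, was the same for genes of either strand. The meaning of the orientation is not stated in the sources used here.

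With a cCRE upstream, 2073 of the 4945 pairs whose promoter was also measured alone differed from it, which is 41.9% of those tested (limma with Benjamini-Hochberg adjustment at 0.05, on the log2 ratio of pair to promoter alone in each replicate). Of these, 1144 were higher (23.1%) and 929 lower (18.8%). The median pair differed by −0.20, and single pairs ran from −5.57 to 8.43. Leaving out replicate 1, 2 or 3 gave 1359, 731 and 692 calls. With the median pair of each oriented promoter as baseline in place of the promoter alone, 1210 of 1800 calls were higher, and with each replicate centred on its median, 1252 of 1950. The share that was higher was therefore 67.2% and 64.2% under these baselines, against 55.2% with the promoter alone. Without replicate 1, 2 or 3 it was 64.6%, 75.9% and 78.8%. It was 48.7% with pairs at 0 kept (1163 higher, 1224 lower) and 48.3% with only promoters above the vector with both positions empty. With only promoters at or above the median alone it was 45.0%, and with only promoters in plus or minus orientation 46.5% and 60.8%. The vector with both positions empty gave 0.0460, 0.0658 and 0.0654, which is −1.62 ± 0.17 (SD, n = 3) on the log2 scale against the single empty fragment. The empty vector was thus lower with 2 positions than with 1, and the part of that difference in the lower calls was not tested. All pairs of an oriented promoter are set against the same 3 values of that promoter alone, so an error in these moves its pairs together. Of the pairs, 759 (15.0%) were below the vector with both positions empty in every replicate.

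The pairs with the largest gain joined E017 to weak promoters. E017 with the Inhbb fragment P017 in plus orientation reached an activity of 11.4, 10.3 and 11.6, while P017 alone had 0.0138, 0.0376 and 0.0640. The pair was far above the promoter in every replicate, by 8.43 ± 1.13 (log2, SD, n = 3, SE 0.51, limma, BH-adjusted p = 0.0039). The size of this difference rested in part on the spread of the promoter alone, since the 3 values of the pair lay close together and those of P017 did not. E017 with the C1ql2 fragment P031 in plus orientation reached 12.1, 11.6 and 10.9, which is 8.25 ± 0.88 above P031 alone, and 7.78 ± 0.85 above it with P031 in minus orientation. E017 with the Tfcp2l1 fragment P012 in plus orientation reached 16.3, 14.1 and 16.999 against 0.104, 0.135 and 0.111 for P012 alone, a difference of 7.08 ± 0.33 (SE 0.19, adjusted p = 0.0028). E060 with P023 in plus orientation, a fragment at the predicted gene Gm28209, had 4.05, 3.37 and 2.92 against 0.0076, 0.0682 and 0.0349, a difference of 7.03 ± 1.81 that no longer passed without replicate 3 (7.35, adjusted p = 0.062). With the median pair of P023 as baseline it was 4.28, over 1.5 times smaller, and passed (adjusted p = 0.012). In the orientations named here, P017 and P031 alone were below the vector with both positions empty in every replicate, and P023 alone in 2 of 3, so the size of these gains rests on values at the lower end of the range. P012 in plus orientation alone was above that vector in every replicate.

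The 5 lowest pairs were at promoters of middle or low activity and had values near the lower end of the range. E135 with P020, a fragment at the gene 3830432H09Rik, both in plus orientation, gave 0.0098, 0.0011 and 0.0046 against 0.165, 0.164 and 0.190 for the promoter alone, a difference of −5.57 ± 1.60 (SE 0.71, adjusted p = 0.014). E138 with P006 in plus orientation differed by −5.26 ± 2.08 and E266 with the same promoter by −4.87 ± 1.33. E086 with P014 differed by −4.57 ± 0.63, and E267 with the Nifk fragment P007 in minus orientation by −4.52 ± 1.51. The other pairs of these cCREs were much closer to their promoters alone, with medians of −0.56 over 26 other pairs of E135, −0.48 over 34 of E138, −0.77 over 31 of E266, −0.66 over 46 of E086 and −0.86 over 37 of E267. Of these 5 pairs, the calls of E267 and E138 were lost without either of 2 replicates (replicates 1 and 2 for E267, 2 and 3 for E138), that of E266 without replicate 2 and that of E135 without replicate 3. The calls of E138 and E266 were also lost with the median pair as baseline.

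Averaged over promoters, most cCREs were below the promoters alone and a few were far above them. Of 169 cCREs measured with at least 3 promoter fragments, 131 (77.5%) differed from 0, 45 higher (26.6%) and 86 lower (50.9%). The median cCRE had a mean of −0.37, and 122 lay between −1 and 1. Above 1 were 29, of which 13 were above 2, and 18 were below −1. The SD and SE given for a cCRE are between the 3 replicates, each averaged over the same promoters, and leave out how its effect varied from promoter to promoter.

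**Figure D1:**
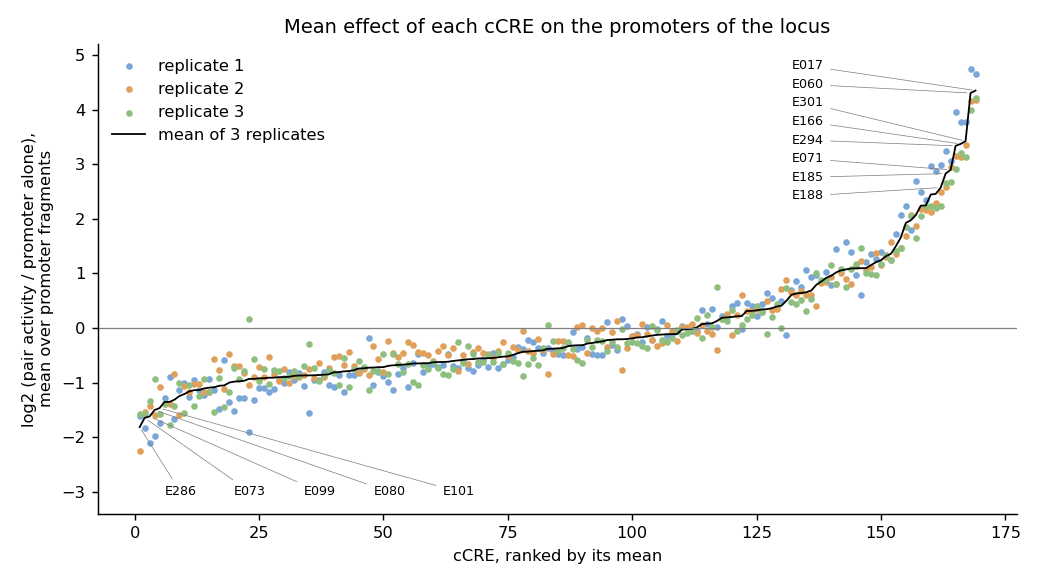
Mean log2 ratio of pair activity to the promoter alone for each of the 169 cCREs measured with at least 3 promoter fragments, ranked from lowest to highest; points are the 3 biological replicates and the line their mean. E017 and E060 stand at the upper end with means of 4.35 and 4.30, and most cCREs lie between −1 and 1.

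E017 (chromosome 1, 118311123 to 118311573) lies over the edge of Tsn, which encodes the nucleic acid binding protein translin. The promoter fragment P006 (118311692 to 118312142) lies next to E017, 231 bp from Tsn. Neither overlapped a RefSeq promoter window, and whether E017 holds promoter sequence of Tsn was not tested. The mean of E017 was 4.65, 4.18 and 4.21 in replicates 1, 2 and 3, or 4.35 ± 0.26 over 18 promoter fragments (SE 0.14, limma, BH-adjusted p = 2.31e-06). All 33 of its pairs passed as higher, from 0.85 to 8.43. The highest of these pairs had an activity of 23.9, below E017 alone in minus orientation (31.3, 29.0 and 33.5). How much of the activity of the pairs came from E017 itself was not tested. E060 (118647958 to 118648408) lies within the Tfcp2l1 gene, and its mean was 4.75, 4.16 and 4.00, or 4.30 ± 0.40 over 21 fragments (SE 0.17, adjusted p = 4.32e-06). Of its 61 pairs 59 passed as higher and none as lower. Replicate 1 was the highest of the 3 for both, and no replicate of any other cCRE reached the mean of either.

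The next 6 cCREs had means between 2.57 and 3.42. E301 (120529869 to 120530319, 24845 bp from Marco) had 3.42 ± 0.33 over 13 fragments and passed as higher in 29 of 30 pairs. E166 (119398645 to 119399095, 16368 bp from Inhbb) had 3.37 ± 0.35, with 45 of 49 pairs higher. E294 (120461482 to 120461932, 12606 bp from Marco) had 3.34 ± 0.55, with 60 of 63 pairs higher and 1 lower. E071 (118740997 to 118741447, 55829 bp from Tfcp2l1) had 2.90 ± 0.20, with 39 of 42 pairs higher, and E185 (119497574 to 119498024, within Ralb) 2.83 ± 0.36, with 28 of 30. E188 (119537708 to 119538158, 6874 bp from Epb41l5) had 2.57 ± 0.38, with 38 of 51 pairs higher and 1 lower. Each of these 6 passed with an adjusted p of at most 2.12e-05, and their order among neighbours was not tested. The means of E301, E166 and E294 differed by less than the SD of any of them.

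At the other end, E286 (120374776 to 120375226, 31602 bp from C1ql2) had −1.61, −2.25 and −1.57, a mean of −1.81 ± 0.38 (SE 0.16, adjusted p = 0.00012). None of its 12 pairs was above the promoter alone. E073 (118748625 to 118749075, 63457 bp from Tfcp2l1) had −1.64 ± 0.16, E099 (119003803 to 119004253, within Gli2) −1.62 ± 0.42, E080 (118822227 to 118822677, 11384 bp from Gli2) −1.50 ± 0.53 and E101 (119014245 to 119014695, within Gli2) −1.47 ± 0.34. These means are over 10 promoter fragments for E286, 14 for E073, 12 for E099, 5 for E080 and 6 for E101. E073 went both ways, with 9 of 21 pairs lower and 2 higher. E286 alone gave between 0.0129 and 0.0942, E099 between 0.0523 and 0.0600, E080 between 0.0079 and 0.0490, and E101 between 0.0430 and 0.0870, all below the single empty fragment in the same replicate. Of all 14 tested cCREs that overlap Gli2, 12 were lower and none higher, with a median of −0.82, where 50.9% of the 169 were lower and 26.6% higher with a median of −0.37. The same count among the 8 that overlap Tfcp2l1 was 1 lower and 2 higher (E060 and E062, 0.79 ± 0.34), with a median of −0.07.

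How active a cCRE was on its own went with how far it raised promoters. Over the tested cCREs with a value alone, the mean effect and the log2 activity of the cCRE alone had a Pearson's r of 0.87 and a Spearman's rho of 0.74. This is a description over cCREs measured in the same replicates, and E058 lacked a value alone. The promoters differed between cCREs, with for example 3 fragments for E049 and 22 for E066. E017 alone gave 14.9, 15.0 and 16.9 in plus and 31.3, 29.0 and 33.5 in minus orientation, and E060 16.4, 15.9 and 14.3 in plus and 7.57, 7.54 and 6.92 in minus. In plus orientation both were close to the most active promoter alone, the Nifk fragment with 14.8 to 17.6. E017 in minus orientation was above it in every replicate, and E060 in minus orientation below it. The other 6 were less active alone. E301 had 5.11, 5.03 and 4.55 in plus and 1.82, 1.69 and 1.73 in minus orientation, E166 between 3.00 and 3.95, E294 between 1.93 and 2.92, E071 between 1.68 and 3.28, E188 between 1.30 and 1.70, and E185 in minus orientation 1.09, 0.827 and 1.03.

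A strong cCRE narrowed the differences between promoters. Across the 33 pairs of E017, at 32 oriented promoters, the SD was 2.46 (log2) for the promoters alone and 1.59 for the pairs. Activity ran from 0.0308 to 7.30 for the promoters alone and from 0.496 to 23.9 for the pairs. For the 61 pairs of E060, at 37 oriented promoters, the SD fell from 2.59 to 1.18, and the activities of the pairs ran from 0.771 to 22.4. A promoter measured with both orientations of the cCRE counts for each. The order of the promoters was kept in part, with a Pearson's r between pair and promoter alone of 0.57 for E017 and 0.70 for E060, against 0.94 over the 12 pairs of E286. These SDs and correlations are descriptions over promoters.

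**Figure D2:**
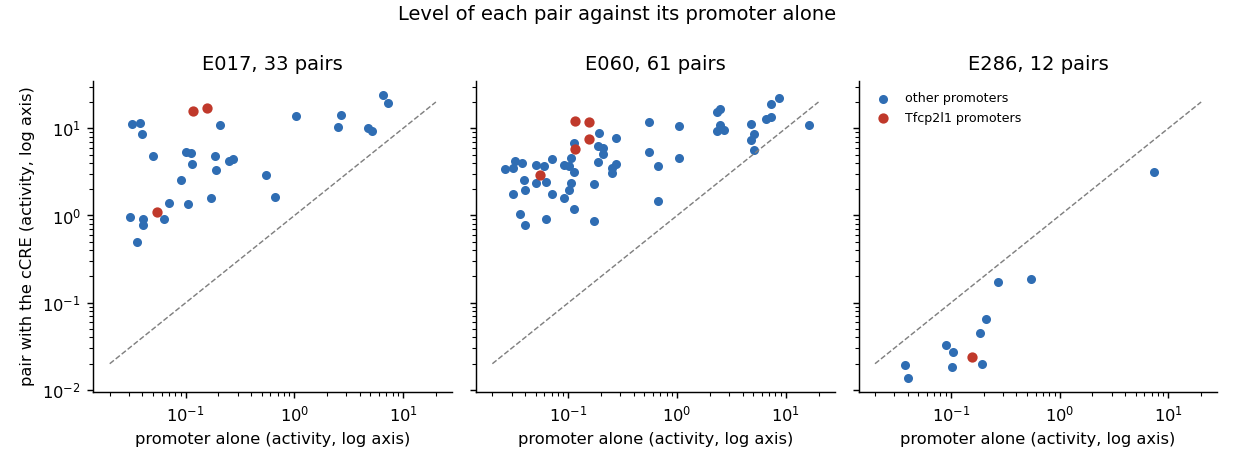
Activity of each pair (geometric mean of 3 replicates, log axis) against that of its promoter alone (log axis) for E017, E060 and E286. Red points are the fragments P011 and P012 at Tfcp2l1, and the dashed line marks equal activity. All pairs of E017 are at 0.496 or more and those of E060 at 0.771 or more, while all 12 pairs of E286 lie below the line.

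Among the cCREs that shared at least 10 oriented promoters with E017, those whose effects across promoters were most like it were E166 (r = 0.92 over 32 oriented promoters), E188 (0.88 over 27) and E060 (0.88 over 32). The median r over the 140 cCREs compared was −0.01, with a lowest of −0.77. The points share the promoter alone, which is subtracted from both, so part of each r comes from that shared value.

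The range of effects differed with the activity of the promoter alone. At the 32 oriented promoters whose activity alone was below 1, the pairs ran from −5.57 to 8.43, and 26.6% of 3815 were higher and 18.3% lower. At the 11 with an activity of 1 or more, the pairs ran from −2.78 to 3.73, with 11.4% of 1130 higher and 20.5% lower, against 23.1% and 18.8% over all pairs. The SD of the effect over cCREs was between 0.97 and 2.61 at each of the 29 weaker oriented promoters with at least 10 pairs, and between 0.37 and 0.98 at each of the 10 stronger ones. Some pairs of weak promoters had very low values that differed several-fold between replicates, as E135 with P020 (0.0098, 0.0011 and 0.0046). The part of such spread in the wider range was not tested. At the Nifk fragment in plus orientation, the most active, 2 of 54 pairs were higher and 7 lower, from −1.01 to 1.02. At the Ptpn4 fragment in plus orientation 15 of 249 were higher and 23 lower, and at the Tmem185b fragment 2 of 15 were higher. In the other orientation the same Nifk fragment, with 0.613, 0.680 and 0.716 alone, had 22 of 135 pairs higher and 29 lower, with effects from −4.52 to 2.47.

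**Figure D3:**
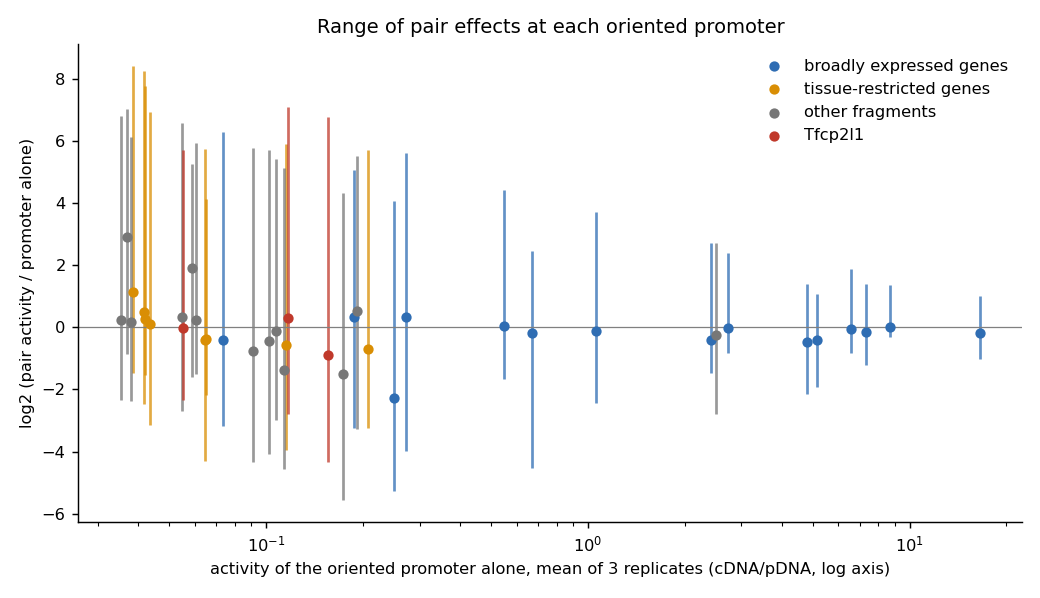
Log2 ratio of pair activity to the promoter alone at each of the 39 oriented promoters with at least 10 pairs, against the mean activity of that promoter alone (log axis); points are medians over cCREs and lines run from the lowest to the highest pair. The lines shorten from weak promoters, where they reach up to 8.43, to the Nifk fragment at the right, where they run from −1.01 to 1.02.

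By the kind of gene, 393 of 1992 pairs (19.7%) with promoters of broadly expressed genes were higher and 400 (20.1%) lower. With promoters of genes expressed in few tissues (Gli2, Inhbb, Sctr, C1ql2 and Marco) 265 of 988 (26.8%) were higher and 163 (16.5%) lower. With the Tfcp2l1 fragments 79 of 288 (27.4%) were higher and 64 (22.2%) lower, so 49.7% differed against 41.9% of all pairs. Medians were −0.18, −0.15 and −0.56, against −0.20 for all. All but P006 of the promoters of broadly expressed genes that were tested in plus orientation had an activity alone above 1, and all those of the other kinds named were below 1, so these kinds of gene also differed in the activity of their promoters alone, and kind and activity cannot be told apart in plus orientation.

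Averaged over cCREs, 10 of 21 promoter fragments (47.6%) differed from the promoter alone, 7 higher (33.3%) and 3 lower (14.3%). The highest means were those of P023 (2.57 ± 2.03, SD, n = 3), the Inhbb fragment P017 (1.45 ± 0.46) and the C1ql2 fragment P031 (1.09 ± 0.40). P023 did not pass (adjusted p = 0.074), with 4.91 in replicate 1 against 1.49 and 1.31, and its value alone in replicate 1 was 0.0076 in plus and 0.0028 in minus orientation, far below replicates 2 and 3. Without replicate 1 it had 1.40 and passed. P017 passed (SE 0.20, limma, BH-adjusted p = 0.012) and P031 passed (SE 0.18, adjusted p = 0.013), each over 45 and 54 cCREs. The lowest were P006 near Tsn (−0.67 ± 0.21, adjusted p = 0.013), P020 (−0.44 ± 0.08, adjusted p = 0.012) and the Clasp1 fragment P010 (−0.43 ± 0.03, adjusted p = 0.012). Without replicate 2 or 3, only 2 and 3 fragments passed. P017 had 1.54 and 1.63 there (adjusted p = 0.10 and 0.089), P020 −0.48 and −0.40 (adjusted p = 0.077 and 0.051), and P031 and P010 did not pass without replicate 2 (0.98 and −0.44) nor P006 without replicate 3 (−0.61). By the median over cCREs, P031 had 0.47 and did not pass (adjusted p = 0.16). With pairs that had a replicate at 0 kept, P023 had 1.58, P017 0.93 and P031 0.57, each over 1.5 times smaller, and P017 and P031 still passed (adjusted p = 0.0061 and 0.026).

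The means of the Tfcp2l1 fragments had opposite signs, and the difference between the fragments was not tested. P011 had 0.38, 0.63 and 0.87, a mean of 0.62 ± 0.25 over 38 cCREs (SE 0.12, adjusted p = 0.018), with 12 of its 41 pairs higher and 3 lower. It did not pass without replicate 2 (0.62, adjusted p = 0.12) or 3 (0.50, adjusted p = 0.0996), by the median over cCREs (0.35, adjusted p = 0.21) or with zeros kept (0.35, adjusted p = 0.051). P012 had −0.56, −0.31 and −0.06, a mean of −0.31 ± 0.25 over 131 cCREs (adjusted p = 0.078), with 67 of 247 pairs higher and 61 lower. In plus orientation only, P012 had 0.28 (adjusted p = 0.026). The means cover different cCREs. Over the 40 oriented cCREs measured with both in minus orientation, the medians were 0.01 for P011 and −0.65 for P012. Taken cCRE by cCRE, the median of P011 minus P012 was 0.24, with P011 higher for 24. The effects on the fragments had a Pearson's r of 0.73.

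The strong cCREs raised the Tfcp2l1 fragments in every combination measured. With P012 in minus orientation, E017 gave 17.4, 15.7 and 18.2, E060 in plus orientation 13.2, 13.1 and 9.74 and in minus orientation 8.43, 7.32 and 7.13, E071 in plus orientation 4.42, 3.32 and 3.06, and E301 in plus orientation 4.25, 3.79 and 3.35, where P012 alone had 0.152, 0.156 and 0.159. All of these values were far above those of the promoter alone, with no overlap. With P011 in minus orientation E017 and E060 gave less, at 1.01, 0.940 and 1.35 for E017 and 3.17, 3.02 and 2.55 for E060, against 0.0591, 0.0579 and 0.0483 for P011 alone. E185 did not give less, with 1.43, 1.35 and 1.72 at P011 and 1.35, 0.923 and 1.34 at P012, both in minus orientation. E017 raised P011 by 4.31 ± 0.43 and P012 by 6.78 ± 0.11 in the same orientation.

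Most pairs of the Tfcp2l1 fragments tested against the promoter alone were with P012 (247 of 288), and those with P011 were in minus orientation. P012 holds only 3 bases of the RefSeq promoter window, so the comparison covers the whole window only through P011 in minus orientation. For 130 cCREs measured with a Tfcp2l1 fragment and with at least 3 other promoters, the mean over Tfcp2l1 fragments was set against that over the others in each replicate. The difference passed for 36 (27.7%), with 22 higher at Tfcp2l1 (16.9%) and 14 lower (10.8%). The effects at both kinds of promoter had a Pearson's r of 0.85 and a rho of 0.68 as a description. All 20 cCREs whose mean at other promoters was above 1 had a larger value at Tfcp2l1, and 11 of them passed. E060 had 5.89 at Tfcp2l1 and 4.13 at the others (difference 1.76 ± 0.32, SE 0.28, limma, BH-adjusted p = 0.035) and E017 5.62 and 4.19 (1.43 ± 0.45, adjusted p = 0.035). Set against only the other promoters with an activity alone below 1, the differences were 0.86 for E060 (adjusted p = 0.10) and 0.91 for E017 (adjusted p = 0.11), and 9 of 129 cCREs passed in all. None of the 11 was among these 9, with adjusted p-values from 0.053 to 0.11 (limma). Of the 20, E156 was lower at Tfcp2l1 in that comparison (−0.14), and E005 (0.02) and E129 (0.07) were nearly equal, while the rest stayed higher. Against all other promoters, no cCRE passed without replicate 1 or without replicate 3, and 33 passed without replicate 2. In limma 44, 44 and 49 had an unadjusted p under 0.05 without replicates 1, 3 and 2.

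The 3 largest gains at Tfcp2l1 were those of E061 (2.39 ± 0.52), E004 (2.15 ± 0.33) and E095 (1.89 ± 0.13), each with an adjusted p of 0.035. E061 (118657818 to 118658268) lies within the Tfcp2l1 gene, E095 (118977165 to 118977615) within Gli2, and E004 (118003747 to 118004197) between genes. Each value rests on 1 pair with P012 in minus orientation, which reached 0.487, 0.967 and 0.759 for E061-P012-, 2.19, 0.920 and 1.02 for E004+P012- and 0.355, 0.385 and 0.339 for E095+P012-, all above the 0.152, 0.156 and 0.159 of the promoter alone. The SDs and p-values of these differences are over replicates and leave out the spread between promoters. Over all promoters, pairs of E061 ran from −3.46 to 5.94 and those of E004 from −0.90 to 3.74. Against 2.19 and 3.03 at Tfcp2l1, both cCREs thus had larger gains at some other promoter. The 3 largest losses were those of E118 (−2.81 ± 1.41), E097 (−2.58 ± 1.45) and E263 (−2.26 ± 0.96), with adjusted p-values of 0.035, 0.041 and 0.035. E118 with P012 gave 0.0095, 0.0128 and 0.0619 (E118-P012-), so the replicates of these low values differed several-fold. Against other promoters below 1, the gains of E061 (2.30), E004 (1.94) and E095 (1.91) passed with an adjusted p of 0.032, and the losses did not (adjusted p = 0.055, 0.056 and 0.055). When pairs with a replicate at 0 were kept with a pseudocount, E095 turned to −1.04 (adjusted p = 0.095).

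**Figure D4:**
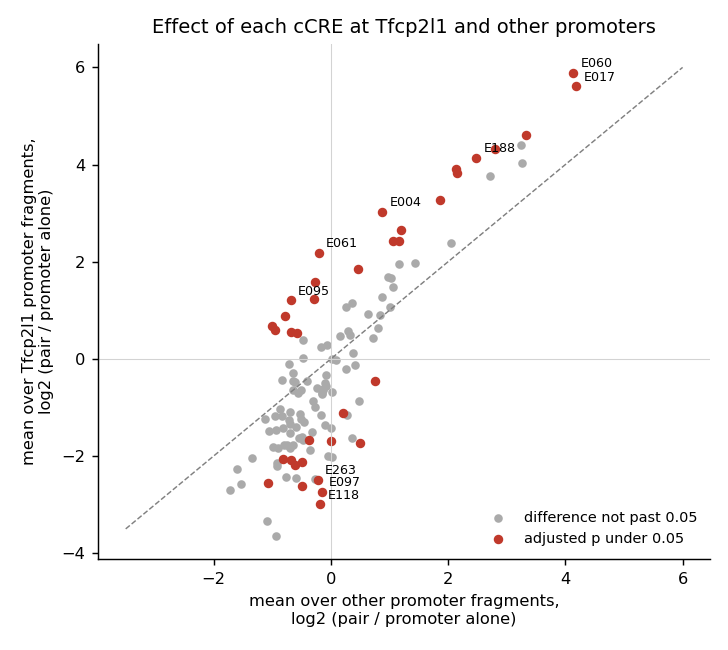
Mean log2 ratio of pair activity to the promoter alone over Tfcp2l1 promoter fragments (vertical axis) and over the other promoter fragments (horizontal axis) for each of 130 cCREs; red points passed the test of the difference and the dashed line marks equal means. Points at the upper right lie above the line, with E060 at 5.89 against 4.13.

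Turning the cCRE around changed most pairs little. For 1349 pairs of a cCRE and an oriented promoter measured with the cCRE both ways, the median size of the difference was 0.68 and 850 (63.0%) were under 1. The test called 259 (19.2%), 147 with the plus and 112 with the minus orientation higher, but none without any 1 of the replicates (366 to 420 had an unadjusted p under 0.05). E060 was more active in plus orientation at all 25 oriented promoters, by a median of 0.97, with 14 calls, in the same direction as its own activity alone. E294 was more active in plus orientation at 21 of 28 promoters, with 11 calls in plus and 2 in minus, while E188 was more active in plus at only 5 of 21, with 4 calls in minus and none in plus. E188 alone went the other way, with 1.57, 1.70 and 1.52 in plus and 1.35, 1.40 and 1.30 in minus orientation.

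A few pairs changed with orientation by far more than this, and 42 of the 1349 (3.11%) by over 4 on the log2 scale. E143 with P006 in minus orientation gave 5.22, 5.87 and 5.59 with the cCRE in plus and 0.0050, 0.0363 and 0.0725 with it in minus, a difference of 7.87 ± 1.93 (SE 0.86, limma, BH-adjusted p = 0.027). E250 with P016 in plus orientation had the largest difference the other way, −7.79 ± 1.63, with 0.0076, 0.0357 and 0.0428 in plus and 6.17, 4.40 and 4.62 in minus. E066 with the C1ql2 fragment differed by 6.70 ± 0.48, E086 with P015 by 6.49 ± 0.40, E034 with P015 by −6.81 ± 2.12 and E143 with P016 by −6.64 ± 0.30. With other promoters these cCREs had a median effect of −0.34 over 39 pairs of E143, −0.45 over 29 of E250, −0.52 over 69 of E066, −0.68 over 45 of E086 and −1.02 over 25 of E034. Single other pairs were far above these medians, with highest effects of 5.88 for E250, 4.26 for E066, 5.74 for E086 and 1.69 for E034. For E143 with P006 it was 4.63, in its pair with P016 given before. E143 was in plus orientation in one of its high pairs and in minus in the other.

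Most pairs were less active than their parts added up. Of 4933 pairs with both parts measured alone, 3078 (62.4%) differed from the sum of cCRE alone and promoter alone, 352 higher (7.14%) and 2726 lower (55.3%), with a median of −1.13. Against the higher of the parts in place of their sum, 552 of 2446 calls were higher and 1894 lower, with a median of −0.73. The sum counts the activity of the plasmid without any fragment in both parts, and the vector with both positions empty was −1.62 below the single empty fragment, as given above. Where the promoter alone had an activity of 1 or more, far above both empty vectors, the median was −0.33, and 33.9% of 1128 pairs were lower and 6.74% higher. Where it was below 1, the median was −1.64 and 61.6% of 3805 were lower. All 33 pairs of E017 were below the sum, by a median of −2.72, and the closest by −0.66. With E060 47 of 61 were lower and none higher (median −1.22), while E185 had 7 of 30 higher and 9 lower, with a median of −0.12.

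**Figure D5:**
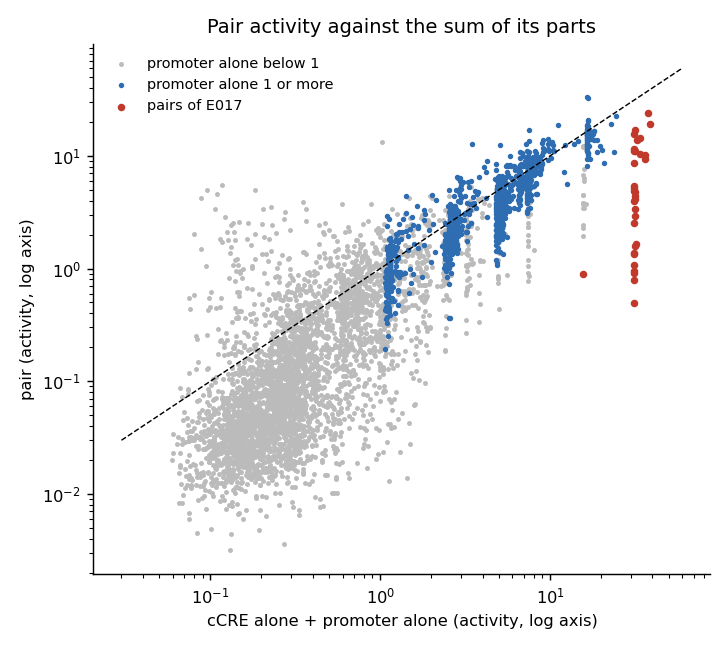
Activity of each of 4933 pairs (geometric mean of 3 replicates, log axis) against the sum of the activities of its cCRE and its promoter alone (log axis); blue points have a promoter with an activity of 1 or more, red points are pairs of E017, and the dashed line marks equality. All 33 pairs of E017 lie below the line, and blue points lie closer to it than grey ones, with medians of −0.33 and −1.64.

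The pairs furthest above the sum were E031 with the Marco fragment P033 (3.91, 5.44 and 5.71 in the pair against 0.0641, 0.0451 and 0.0464 for the cCRE and 0.0221, 0.0586 and 0.0496 for the promoter, 5.70 ± 0.19, SE 0.14, limma, BH-adjusted p = 0.0057), E066 with the C1ql2 fragment P031 (5.58 ± 0.38) and E143 with P006 (5.57 ± 0.49). In each the pair was far above both parts in every replicate, and the median of the cCRE's other pairs was below the sum, at −0.92, −1.05 and −0.75. The pairs furthest below were E077 with P015 (−6.70 ± 1.33), E249 with P015 (−6.43 ± 2.37) and E135 with P020 (−6.23 ± 1.68). E077 alone gave 1.26, 1.41 and 1.57 and its pair with P015 0.0179, 0.0275 and 0.0055.

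Some pairs carried a promoter fragment in place of the cCRE in the upstream position. At 16 promoter fragments with at least 5 such partners, the mean effect of a cCRE was lower than that of a promoter fragment for 9 (56.2%), and none passed the other way (10 had an unadjusted p under 0.05 in limma). The Tfcp2l1 fragment P012 had −0.31 with a cCRE and 0.96 with one of 14 promoter fragments, a difference of −1.27 ± 0.04 (SE 0.04, limma, BH-adjusted p = 0.00014), and P011 had 0.62 and 1.25 (−0.62 ± 0.49, adjusted p = 0.070). The Marco fragment P033 had 0.23 and 1.04 (−0.80 ± 0.11, adjusted p = 0.00087). By the median over upstream fragments, 6 passed, 5 lower and 1 higher.

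Exchanging the positions of the fragments changed many pairs. Of 2234 combinations measured with the cCRE first and with the promoter first, 1061 (47.5%) differed, 650 more active with the cCRE first and 411 with the promoter first. With E017, none of the 23 combinations was more active with the cCRE first, and the median difference was −2.83. The median was also negative for E301 (−1.40, 2 of 11 more active with the cCRE first) and E166 (−1.17, 11 of 29). The same held for E060 (−1.07, 12 of 43), E071 (−0.72, 5 of 19) and E188 (−0.20, 9 of 21). With E294, 21 of 39 were more active with the cCRE first (median 0.08), and with E185 11 of 18 (median 0.28).

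The effect of a pair had no relation to the distance between its fragments in the genome, which ran from 0.569 to 2653 kb with a median of 681 kb. Over the 4945 pairs, Spearman's rho between effect and distance was 0.02, and −0.03 after the mean of each cCRE was removed. Of the 430 pairs under 100 kb apart 27.7% were higher and 18.8% lower, and of the 1543 over 1000 kb apart 24.2% and 16.8%. By place, 21 of the 79 tested cCREs that overlap a gene were higher and 38 lower (median −0.32), and 24 of the 90 between genes were higher and 48 lower (median −0.38).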

How the data were processed

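Reporter activities of the Tfcp2l1 Upstream mix in E14TG2a cells were read from the authors' deposited table, in which each value is a linear ratio of barcodes in cDNA to barcodes in plasmid DNA, 1 for each biological replicate. Bowtie2 and the mouse build mm10 are named in the submitters' processing notes, without a role. The scaling, barcode numbers and filters are not given in the sources used here, and depth is unknown. The table also holds 3 columns over all replicates, which belong to no single sample and were not used, and 2 further tables were not analysed here. The 3 replicates are separate transfections of 1 plasmid pool, so p-values and SDs leave out differences between barcoded plasmids of a pair. Members and lists were chosen with earlier results of these data known.

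Per replicate, log2 of pair activity minus log2 of the promoter alone was tested against 0 with limma 3.58.1 in R 4.3.3 (lmFit, eBayes, two-sided), with Benjamini-Hochberg adjustment at 0.05 over all features of a comparison. This blocks on the replicate, since pair and promoter of a replicate come from the same cDNA sample. The deviations of pair and promoter alone from their own means correlated with r = 0.22, 0.21 and 0.09 in replicates 1, 2 and 3. Between replicates, log2 activities of the pairs had r of 0.92 to 0.94, and no value was identical. The log2 differences from the promoter alone, which were tested, had r of 0.81 to 0.84. Of the 5599 pairs, 534 had a replicate at 0 and were left out (422, 88 and 132 at 0 in replicates 1, 2 and 3). A further 120 pairs lacked the promoter alone and entered no test against it. Values per cCRE are means over promoter fragments (at least 3) after averaging orientations, and per promoter over cCREs (at least 10). The methods were tested on simulated data. Named cCREs are the 8 highest and 5 lowest means, named promoters the Tfcp2l1 fragments and the 3 highest and 3 lowest, and named pairs the 5 largest changes each way, or 3 in other comparisons, past the threshold with 1 direction in all replicates. E125 and the cCREs within Gli2 and Tfcp2l1 were singled out after their values were seen. A promoter fragment was named after a gene with an edge within 300 bp or a promoter window in the fragment (RefSeq, GRCm38.p6). Alternatives were leaving out each replicate, no replicate block, other baselines and centring, a variance trend, medians, higher minimums, a pseudocount of 0.01 with zeros kept, and, chosen after seeing the data, single promoter orientations, promoters below 1 or above the empty vector, and the median-pair baseline for promoter means. Python 3.11.15, numpy 2.4.6, pandas 2.3.3 and matplotlib 3.10.9 were used.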

Additional observations from a re-analysis of the deposited data

Results flagged for a closer look

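The limma test of the difference itself called 36 of 130 cCREs (27.7%) as different between Tfcp2l1 and other promoters. The 3 largest differences each way among those called were flagged. The differences were 2.39 for E061, 2.15 for E004, 1.89 for E095, −2.81 for E118, −2.58 for E097 and −2.26 for E263 (log2, Tfcp2l1 minus other promoters, n = 3 replicates). They rest on 1 Tfcp2l1 fragment each, and on 1 or 2 pairs with it. None of them passed without replicate 1 or without replicate 3. Those of E118, E097 and E263 did not pass against other promoters below 1, and that of E095 turned to −1.04 with zeros kept.

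Pairs that entered no comparison, because their promoter was not measured alone, in part carried signal above the vector with both positions empty, as did 63.8% of all pairs in every replicate. The 12 pairs with P011 in plus orientation, the Tfcp2l1 fragment in the orientation not measured alone, had a median activity of 0.150, with 9 above that vector in every replicate. The highest was E060-P011+ with 11.3, 11.4 and 10.2, followed by E054+P011+ with 1.66, 0.559 and 0.821. The 107 pairs with P019 in minus orientation, at Tmem185b, had a median of 0.503, from 0.0932 to 8.77, with 106 above that vector in every replicate. The 1 pair with P030 in minus orientation, at 0.0566, was not above it.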

How the results depend on the processing

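Of the single cCREs, promoters and pairs named, 97 of 147 values recomputed without a replicate and 200 of 218 under other alternatives kept direction and side of the threshold. Reversed were P012 in plus orientation only (0.28) and E095 at Tfcp2l1 with zeros kept (−1.04); the cause was not tested. P012, P006 and P020 also turned sign with the median pair as baseline (0.17, 0.13 and 0.12), which follows from its construction, since it centres each promoter on its own pairs. With the same baseline P023, P017 and P031 fell to 0.23, 0.34 and 0.38. Calls of pairs against the promoter alone numbered 692 to 1359 without a replicate, against 2073, and 957 and 1174 with plus or minus promoters only, where fewer pairs were tested. Promoter means gave 2 to 11 calls without a replicate, against 10. Orientation gave 0 each time, against 259, Tfcp2l1 against other promoters 0 to 33, sums of parts 1397 to 2154 and fragment order 656 to 716. Tfcp2l1 against other promoters gave 19 calls with plus orientation only and 9 with promoters below 1, against 36. Without the replicate block, 2151 pairs differed from the promoter alone and 3099 from the sum of parts, and no count moved by over 1.5 times. cCRE means gave 119 to 125 calls without a replicate, against 131.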
